A study of Mus musculus with 10 samples.

Results

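The genes described here are the mouse heat-shock proteins and their J-domain co-chaperones, followed in cells of the kidney cortex from uninjured kidneys and from kidneys 1 to 14 days after injury. They were taken by symbol: every gene whose name begins with Hspa, Hspb, Hsp90, Hspd, Hspe, Hsph, Dnaja, Dnajb or Dnajc, without pseudogenes, and with at least 50 unique molecular identifiers (UMIs, counts of captured RNA molecules) over all libraries. This gave 67 of 28808 genes. The members nearest to the minimum were Hspb7 with 77 UMIs, Hspa1l with 100 and Dnajb3 with 159. The genes closest below it were Dnajb13 with 29, Dnajb7 with 27 and Hspb9 with 22. Hspb11, Hspbp1 and Hspbap1 entered through their prefix, although they are not small heat-shock proteins.

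The study profiled single cells of mouse kidney cortex by Drop-seq, which captures the 3′ ends of RNA on barcoded beads in droplets. The mice were 4 weeks old, and the labels name normal and injured kidneys without the kind of injury, strain or sex. There was 1 control library, 1 library each for days 1, 2 and 4, and 2 libraries each for days 7, 11 and 14. The labels do not say whether libraries of a day came from separate animals, so p-values here measure the spread between libraries, which may be technical.

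Heat-shock proteins are chaperones: they bind unfolded protein, keep it from aggregating and help it to fold. HSP70 proteins (Hspa genes) work with J-domain proteins (Dnaja, Dnajb, Dnajc), which deliver clients and start ATP hydrolysis, and with HSP110 proteins, which exchange the nucleotide. HSP90 proteins finish the folding of kinases and receptors, the small heat-shock proteins (Hspb) hold unfolded protein without ATP, and the HSPD1 and HSPE1 ring with HSPA9 folds protein imported into mitochondria. Heat-shock factors bind heat-shock elements, inverted repeats of the unit GAA, upstream of many of these genes, and the unfolded protein response of the endoplasmic reticulum acts through another element, named ERSE. In the kidney, tubule cells are known to raise HSPA1 and HSPB1 after ischaemic or toxic injury.

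Sequences just upstream of a few members are shown because they hold such elements and belong to genes on which the results below turn. They are from RefSeq on build GRCm38.p6, read in the direction of transcription, and capitals mark the motif. The first pair belongs to the inducible HSP70 genes Hspa1a (chr17:34972157-34972406, minus strand) and Hspa1b (chr17:34959239-34959488, minus strand), each 250 bases ending at the base before the gene. The third is the 250 bases before Hspb1 (chr5:135887669-135887918, plus strand). The next is the 30 bases around the heat-shock element before Hspe1 (chr1:55088053-55088082, plus strand), which lies within the neighbouring gene Hspd1 on the opposite strand. The last is 185 bases before Hsp90b1 (chr10:86705510-86705694, minus strand), in which the capitals mark ERSE matches.
Hspa1a: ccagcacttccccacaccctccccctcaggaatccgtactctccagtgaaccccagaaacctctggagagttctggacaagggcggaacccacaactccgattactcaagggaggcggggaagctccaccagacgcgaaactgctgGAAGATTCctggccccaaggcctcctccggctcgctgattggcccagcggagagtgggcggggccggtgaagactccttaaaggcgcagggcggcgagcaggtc
Hspa1b: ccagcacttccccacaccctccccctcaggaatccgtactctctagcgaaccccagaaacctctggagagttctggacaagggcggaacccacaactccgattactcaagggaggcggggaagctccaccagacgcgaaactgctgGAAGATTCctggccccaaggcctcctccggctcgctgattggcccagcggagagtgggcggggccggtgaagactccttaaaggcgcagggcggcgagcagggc
Hspb1: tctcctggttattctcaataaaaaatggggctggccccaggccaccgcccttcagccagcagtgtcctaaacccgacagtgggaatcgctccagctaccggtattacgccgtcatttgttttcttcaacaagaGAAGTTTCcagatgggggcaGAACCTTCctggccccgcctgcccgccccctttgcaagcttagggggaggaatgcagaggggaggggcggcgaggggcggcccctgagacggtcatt
Hspe1 element: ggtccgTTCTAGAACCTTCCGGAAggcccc
Hsp90b1: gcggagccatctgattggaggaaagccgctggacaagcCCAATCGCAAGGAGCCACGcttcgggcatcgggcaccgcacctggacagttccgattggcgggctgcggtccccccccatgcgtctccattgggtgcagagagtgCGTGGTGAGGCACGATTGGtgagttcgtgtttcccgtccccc

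The upstream sequences of Hspa1a and Hspa1b differed at 3 of 250 bases (98.8% identical). Both held the pair of units GAANNTTC at 104 to 97 bases before the start. Hspb1 held such a pair at 117 to 110 and again at 97 to 90 bases. A heat-shock element was searched on both strands with 3 units (GAANNTTCNNGAA or TTCNNGAANNTTC) and with 2 units (GAANNTTC or TTCNNGAA, which every 3-unit match also holds). The window searched was the 250 bases before the start, and it was found for 54 of the 67 members. The 3-unit form was present in 3 of these 54 members (5.56%; Dnajb6, Hspd1 and Hspe1) against 0.514% of 27025 genes. Hspd1 and Hspe1 are transcribed in opposite directions from a shared region, and their matches are the same letters, so they are not separate sites. The 2-unit form was in 13 of 54 (24.1%) against 14.5% of genes. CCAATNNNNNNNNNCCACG, the ERSE, was in Dnajc3, Hsp90b1 and Hspa5, against 0.13% of genes. A match of letters is a description of the sequence, not evidence of binding.

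Cells were assigned to classes by marker genes. Of 64803 barcodes, 52797 passed the filters on genes, UMIs and mitochondrial share, and between 1794 and 6375 cells a library were gated as tubular epithelium. All 10 listed proximal and all 6 thick limb markers were detected in these cells. The gate used the same markers, so their detection is no check of the classes. They were also all detected in the summed podocytes, endothelial cells and macrophages or monocytes. The libraries' totals ran from 7091848 to 31632205 UMIs and the median cell held 1244 to 2661. Replicate libraries differed by more than sampling noise. The tables of day 11 alone held barcodes down to 300 genes, of which 5362 and 5424 were removed here to match the minimum of 500 in the other libraries. No more than 4 barcodes were shared by any pair of libraries.

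The makeup of the tubular sums moved with the days. Proximal cells were 65.8% of gated tubular cells in the control, 30.1%, 57.8% and 48.6% on days 1, 2 and 4, 18.3% and 20.8% on day 7, against 71.4% and 77.3% on day 11 and 78.1% with 77.4% on day 14. Mitochondrial transcripts were 24.1% of tubular UMIs in the control, 4.56% and 5.96% on day 7 and 12.8% to 20.3% on days 11 and 14. Summed hemoglobin-type marker RNA in tubular cells was 8.4 CPM (UMI counts per 1000000) in the control, 549.8 on day 1, 408.2 and 14.8 in the day 7 libraries, 653.5 and 621.9 in those of day 11, and 130.4 and 106.1 in those of day 14. Values below are therefore also given for proximal cells alone and for thick limb cells alone. Both gates rest on segment markers, so tubular cells that hold too few of them stay outside. Cells of no named segment held 1874000 of 27960000 tubular UMIs in the control. On day 7 they held 1614000 of 4540000 and 3159000 of 11180000. Whether such cells had lost their markers was not tested. A sum over cells cannot separate a change in every cell from a change in some of them.

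In tubular cells, Hspa1a, Hspa1b and Dnajb1 were high on day 11. The small heat-shock proteins Hspb1 and Hspb8 were high from day 1 to day 7. The mitochondrial chaperones and several cytosolic partners, such as Dnaja1 and Hspa8, fell by day 7 and rose again between days 7 and 11. The HSP110 genes and Hspa5 were below control on both day 7 and day 11. Roles were not tested against each other. Levels are scaled between libraries by TMM (a trimmed mean of ratios). Tests are by edgeR (quasi-likelihood), with p-values adjusted by Benjamini and Hochberg's method over all 16400 genes tested, and a member is called at an adjusted p under 0.05. Against the control, 5 members rose (all genes: 16.7%) and 26 fell (all genes: 18.1%) on day 7, so that 46.3% of the 67 were called beside 34.8% of all genes. On day 11, 7 rose (all genes: 8.62%) and 11 fell (all genes: 8.83%), 26.9% beside 17.4%. On day 14 none rose (all genes: 4.31%) and 7 fell (all genes: 3.27%), 10.4% beside 7.58%. The median log2 change of the members was -0.44, -0.10 and -0.15 on these days, beside 0.04, 0.10 and 0.06 over all genes tested. Between day 7 and day 11, 23 members rose (all genes: 23.0%) and 5 fell (all genes: 21.5%), 41.8% beside 44.4%. Between day 7 and day 14, 25 rose (all genes: 24.5%) and 7 fell (all genes: 22.1%), 47.8% beside 46.6%. Between day 11 and day 14, 5 rose (all genes: 6.39%) and 5 fell (all genes: 6.13%), 14.9% beside 12.5%. The shares called in either direction between days 7, 11 and 14 were near those of all genes. By direction, more members rose and fewer fell than among all genes from day 7 to days 11 and 14. The comparisons against control share 1 control library, which the fit assumes to vary like the replicated days, which was not replicated. The day 14 count of 7 became 16 without either day 7 library, 2 without replicate 1 of day 14 and 1 without replicate 2. The day 11 count of 18 became 10 without replicate 2 of day 11. The count of 10 from day 11 to day 14 became 5 without replicate 2 of day 11 or replicate 1 of day 14, and 6 without replicate 2 of day 14.

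**Figure D1:**
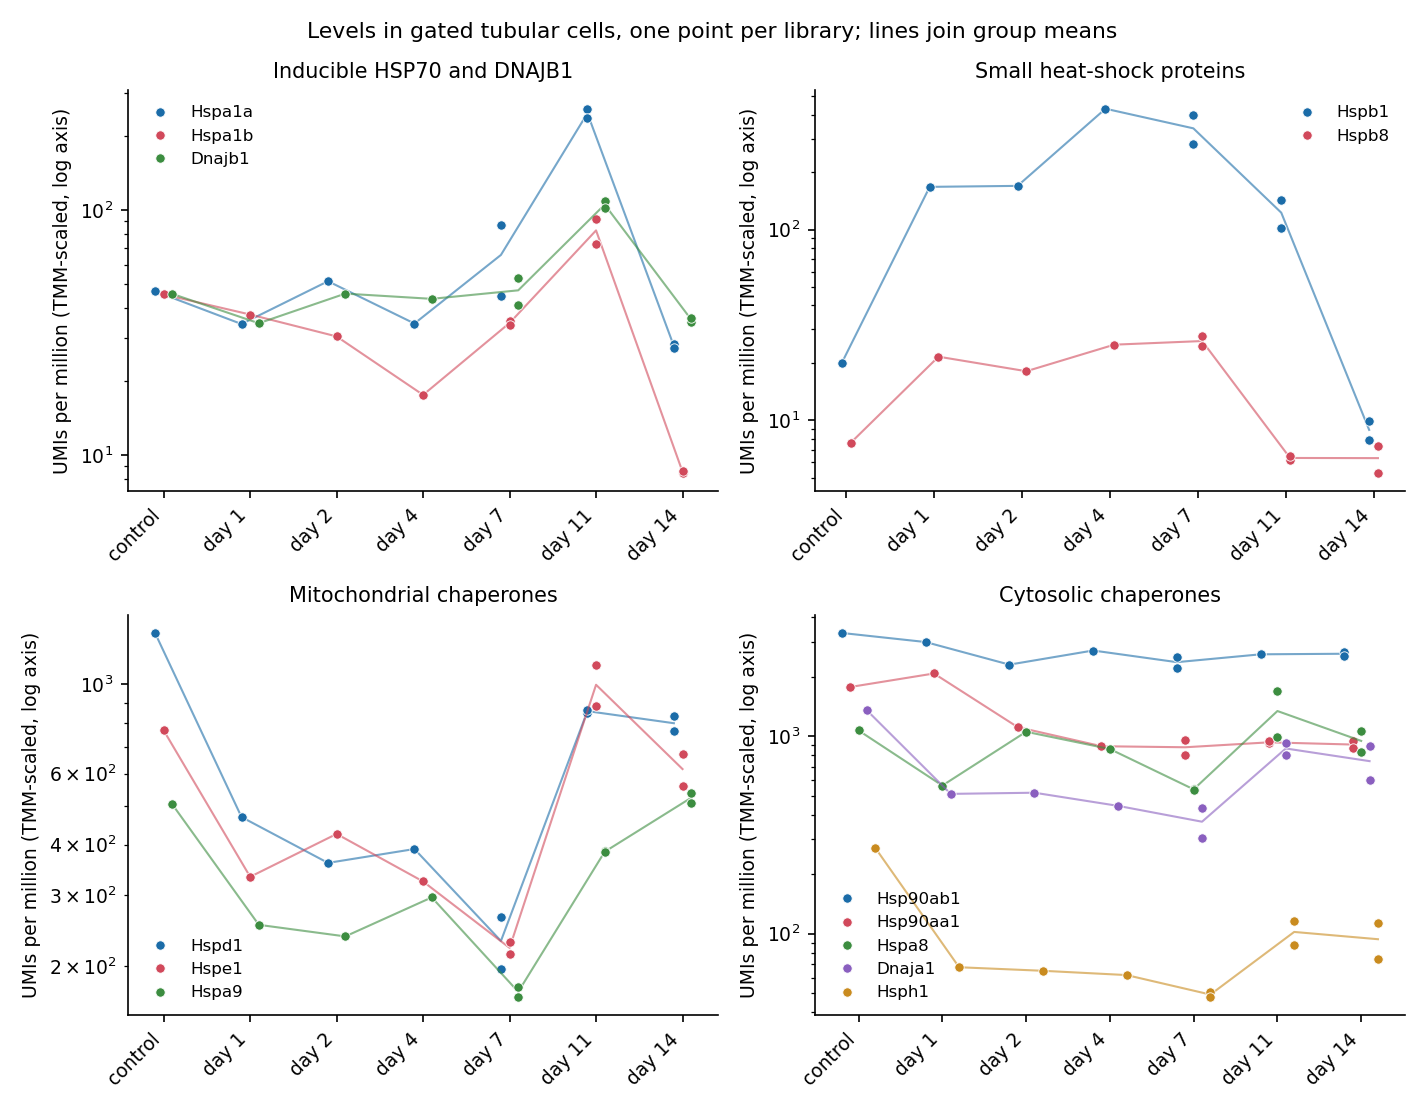
Levels of 13 members in gated tubular cells (y axis: TMM-scaled CPM, log scale) in each library of the control and days 1 to 14 (x axis). Points are libraries and lines join group means. Hspa1a reached 237.7 and 259.6 on day 11, Hspb1 was between 167.4 and 430.2 from day 1 to day 7, and Hspd1, Hspe1 and Hspa9 were lowest on day 7.

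Hspa1a encodes the stress-inducible HSP70, the member most strongly switched on by heat-shock factor. In tubular cells it stood at 46.7 CPM in the control, and at 34.3, 51.3 and 34.5 on days 1, 2 and 4. It was 44.6 and 86.8 on day 7, then 259.6 and 238 on day 11 and lastly 28.4 and 27.4 on day 14. Both day 11 libraries were above every other library. The log2 change from control was 2.41 ± 0.35 (SE; adjusted p = 0.00353) on day 11, 0.51 ± 0.32 (adjusted p = 0.249) on day 7 and -0.74 ± 0.31 (adjusted p = 0.157) on day 14. Day 7 was called without replicate 1 of that day, at 0.90 (adjusted p = 0.00548), and day 14 was called without replicate 1 (adjusted p = 0.0186) or replicate 2 (adjusted p = 0.0193) of day 7. It was also called at -2.46 ± 0.30 (adjusted p = 0.00231) in proximal cells alone. In proximal cells alone, both day 7 libraries lay below the control, where the change in all tubular cells was positive. From day 11 to day 14 Hspa1a fell by 3.16 ± 0.28 on the log2 scale (adjusted p = 0.000473).

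Hspa1b is the neighbouring copy on chromosome 17. The 2 genes are close copies, so the authors' counting could split reads between them. How alike their captured 3′ ends are was not examined here, and each one's own values are uncertain. Hspa1b was 45.3 in the control, 37.5, 30.5 and 17.6 on days 1, 2 and 4, 35.3 and 34.0 on day 7, against 92.4 and 73.1 on day 11 and 8.47 with 8.66 on day 14. It too was highest in both day 11 libraries, and it was lowest in both day 14 libraries. The change from control was 0.87 ± 0.22 (adjusted p = 0.0226) on day 11 and -2.40 ± 0.21 (adjusted p = 0.000541) on day 14. The day 11 call was lost without replicate 1 of that day (0.69, adjusted p = 0.0885). The sum of Hspa1a and Hspa1b, which does not depend on how reads were split between them, was 92.0 in the control, 100.4 ± 28.9 (SD, n = 2) on day 7, 331 ± 29.1 on day 11 and 36.5 ± 0.559 on day 14. The testis-type relative Hspa1l lay between 0.261 and 1.49 CPM and was called in no tubular comparison.

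Dnajb1 encodes the HSP40 that drives HSPA1 and HSPA8 and is a heat-shock factor target. Its level was 45.6 in the control, 34.6, 45.7 and 43.5 on days 1, 2 and 4, 41.1 and 53.1 in the day 7 libraries, 108.6 and 102 in those of day 11, and 35.1 and 36.5 in those of day 14. The other 8 libraries lay between 34.6 and 53.1, and both day 11 libraries lay outside that range. Dnajb1 rose by 1.21 ± 0.22 (adjusted p = 0.00727) from control to day 11 and fell by 1.56 ± 0.18 on the log2 scale (adjusted p = 0.00127) from day 11 to day 14. The calls of Hspa1a and Dnajb1 on day 11 held under every alternative tried.

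Immediate early genes, which cells switch on within minutes of a stimulus and many of which encode transcription factors, were listed beside the chaperones. Of 17 such genes, 10 rose on day 7 (all genes: 16.7%), 12 on day 11 (8.62%) and 2 on day 14 (4.31%) against control in tubular cells, and 0, 0 and 1 fell (all genes: 18.1%, 8.83% and 3.27%). Jun changed by 1.04 ± 0.23 (adjusted p = 0.0161) and Atf3 by 1.67 ± 0.32 (adjusted p = 0.00799) on day 11, the former not called without replicate 2 of that day (0.99, adjusted p = 0.0596). Their summed level was 2761 CPM in the control, 3776 to 4076 on days 1 to 4, 4983 and 6126 on day 7, then 5542 and 5604 on day 11 and lastly 3328 and 3759 on day 14. Their part in the day 11 levels of the inducible genes was not tested, nor was that of the hemoglobin-type RNA given above.

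Hspb1 (HSP27), a small heat-shock protein that binds unfolded proteins and actin, was 19.97 CPM in the control. It was 167 on day 1, 169 on day 2, 430.2 on day 4, 282 and 397 on day 7, against 143 and 102 on day 11 and 9.89 with 7.90 on day 14. All 7 libraries from day 1 to day 11 lay above the control, and both of day 14 lay below it. The day 7 rise was 4.09 ± 0.34 on the log2 scale (adjusted p = 1.75e-05) and that of day 11 was 2.62 ± 0.32 (adjusted p = 0.00221). Between day 7 and day 14 Hspb1 fell by 5.25 ± 0.27 (adjusted p = 8.87e-07). On day 14 it was called below control at -1.16 ± 0.29 (adjusted p = 0.0376), a call lost without replicate 1 (-1.34, adjusted p = 0.0793) or replicate 2 (-1.02, adjusted p = 0.198) of that day. Summed over all filtered barcodes instead of tubular cells, the change of Hspb1 from day 7 to day 11 was 0.01 rather than -1.47 ± 0.23.

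Hspb8, which works with BAG3 to clear aggregates, was also high from day 1 to day 7 and was near the control again on day 11. It was 7.60 in the control, 21.5, 18.1 and 24.9 on days 1, 2 and 4, 27.6 and 24.5 in the day 7 libraries, 6.19 and 6.48 in those of day 11, and 7.36 and 5.29 in those of day 14. It rose by 1.77 ± 0.26 (adjusted p = 0.000465) on day 7 and fell by 2.03 ± 0.22 on the log2 scale (adjusted p = 4.88e-05) from day 7 to day 11. Its co-factor Bag3 was called in no tubular comparison, at -0.42 ± 0.24 on day 7 (-0.69, adjusted p = 0.0487, without replicate 2 of day 7). Hspb2, a muscle-type small heat-shock protein, was at 1.04 in the control and 3.50 and 4.78 on day 7, a change of 2.01 ± 0.51 (adjusted p = 0.0108) that was lost without replicate 2 of day 7 (1.75, adjusted p = 0.0541). Of the 5 small heat-shock proteins, these 3 rose on day 7 (all genes: 16.7%) and none fell (all genes: 18.1%). The related lens chaperone Cryab, counted among the other genes of the chaperone network, rose by 2.16 ± 0.28 (adjusted p = 0.0002) on day 7 and by 1.73 ± 0.27 (adjusted p = 0.00407) on day 11. Hspb2 overlaps Cryab on the opposite strand, so reads of one could be given to the other if strand was not used in counting. The rises of these 2 genes may therefore not be separate.

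**Figure D2:**
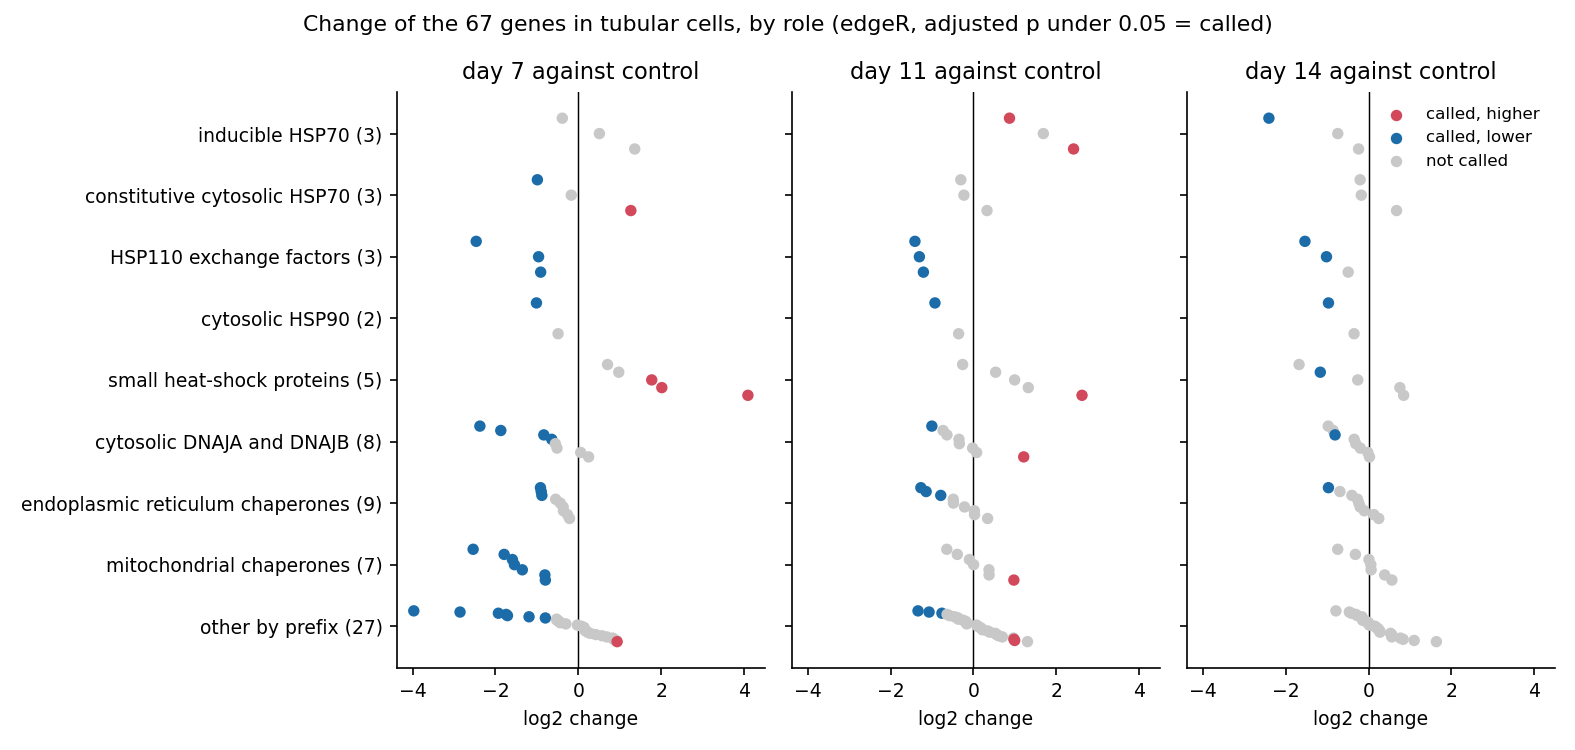
Log2 change from control (x axis) of the 67 members in tubular cells on days 7, 11 and 14, in rows by role with the number of members in each. Red and blue points passed edgeR's adjusted p under 0.05. All 7 mitochondrial chaperones fell on day 7, and 1 of them was called, as higher, on day 11.

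The 7 genes grouped as mitochondrial chaperones fell on day 7 and rose afterwards. All 7 were called lower than control on day 7 (median log2 change -1.54), against 18.1% of all genes called lower. From day 7, all 7 were called higher both on day 11 and on day 14, against 23.0% and 24.5% of all genes. Hspd1, the HSP60 subunit of the folding chamber, was 1339 CPM in the control, 468, 360.3 and 390 on days 1, 2 and 4, and 265 and 196 on day 7. It was 850.2 and 864 on day 11 and 833 and 767 on day 14. The groups of day 7 and day 11 did not overlap, and no later library reached the control. The change was -2.54 ± 0.22 (adjusted p = 2e-05) from control to day 7 and 1.90 ± 0.19 (adjusted p = 3.26e-05) from day 7 to day 11. On days 11 and 14 the changes from control were -0.64 ± 0.22 (adjusted p = 0.0703) and -0.74 ± 0.22 (adjusted p = 0.0678). Both were called without replicate 1 of day 7 (adjusted p = 0.0204 and 0.0198) or replicate 2 of day 7 (0.0215 and 0.0212).

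Hspe1, the HSP10 lid of that chamber, starts next to Hspd1 on the opposite strand. The 2 genes overlap only at their starts (chr1:55088132-55088243), away from the 3′ ends that Drop-seq captures. Reads from the overlap could still be given to the wrong gene if strand was not used in counting. Levels of Hspe1 were 768 in the control, 333, 425 and 324 on days 1, 2 and 4, 214 and 230 on day 7, then 880.3 and 1112 on day 11 and lastly 671 and 560.2 on day 14. Unlike Hspd1, Hspe1 was above the control in both day 11 libraries, although the change of 0.38 ± 0.23 (adjusted p = 0.274) was not called. The change was -1.79 ± 0.22 (adjusted p = 0.000153) from control to day 7 and 2.17 ± 0.19 (adjusted p = 1.49e-05) from day 7 to day 11. Its fall from day 11 to day 14, -0.69 ± 0.19 (adjusted p = 0.0355), was lost when any of replicate 2 of day 11 and the day 14 replicates was left out (-0.51, -0.84 and -0.57).

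Hspa9 (mortalin), the HSP70 of the mitochondrial import motor, was 503 in the control and 167 and 178 on day 7, and it reached 537 and 509 on day 14. The changes were -1.54 ± 0.19 (adjusted p = 0.000145) to day 7 and 0.05 to day 14. Dnajc19, a J-domain protein of the inner membrane, went from 249 in the control to 73.2 and 91.6 on day 7 and then to 439.5 and 539 on day 11. Among the 7 genes grouped here as mitochondrial chaperones, it was the 1 called above control on day 11, at 0.97 ± 0.23 (adjusted p = 0.0199), a call lost without replicate 2 of day 11 (0.82, adjusted p = 0.0938). Dnaja3, a mitochondrial HSP40, changed by -1.35 ± 0.24, Dnajc15 by -0.81 ± 0.21 and Dnajc11 by -0.80 ± 0.21 on day 7. Dnajc15 was not called in proximal cells alone (-0.46, adjusted p = 0.116), nor Dnajc11 with only the groups compared (-0.78, adjusted p = 0.055). Trap1, the mitochondrial HSP90, moved alike in the network list: -1.78 ± 0.24 (adjusted p = 0.000324) on day 7 and 2.78 ± 0.22 (adjusted p = 4.71e-06) from day 7 to day 14. The proximal share and the mitochondrial RNA share of the tubular sums were also lowest on day 7. With the mitochondrially encoded genes left out of the sums, no call given here changed. That setting sums the same cells, so it cannot show what part either share had, which was not tested.

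HSP110 proteins, which recharge HSP70, fell on days 7 and 11 in all 3 members (all genes: 18.1% and 8.83% lower), and 2 of the 3 were called lower on day 14 (all genes: 3.27%). Hsph1 was 271.5 CPM in the control, 67.7, 64.9 and 61.8 on days 1, 2 and 4, 50.7 and 47.8 on day 7, against 88.2 and 116 on day 11 and 113 with 74.5 on day 14. The control was above all 9 later libraries by more than 2 times. The changes were -2.46 ± 0.26 (adjusted p = 6.04e-05), -1.41 ± 0.26 (adjusted p = 0.00709) and -1.53 ± 0.26 (adjusted p = 0.0099) on days 7, 11 and 14, the last lost without replicate 2 of day 14 (-1.27, adjusted p = 0.0643). Hspa4 was 257 in the control, 154 and 120 on day 7, and 112 and 110.4 on day 11, falling by 0.91 ± 0.21 and 1.21 ± 0.21 on the log2 scale. Hspa4l was 93.2 in the control and 34.0 to 49.2 in the 6 libraries of days 7 to 14, and it was called lower on each of these days, on day 14 at -1.01 ± 0.20 (adjusted p = 0.0173). Leaving out either day 14 library ended that call (-1.10, adjusted p = 0.062, and -0.94, adjusted p = 0.132).

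Of the cytosolic HSP90 isoforms, 1 was called in tubular cells; the isoforms were not tested against each other. Hsp90aa1, the stress-responsive isoform, was 1770 in the control and 2072 on day 1, and then 1109 and 888 on days 2 and 4. It was 957 and 798 in the day 7 libraries, 918 and 940.4 in those of day 11, and 946 and 865 in those of day 14. These 6 libraries lay within a narrow band, and the changes of -1.01 ± 0.21 (adjusted p = 0.00366), -0.93 ± 0.21 (adjusted p = 0.0155) and -0.97 ± 0.21 (adjusted p = 0.0251) were called. The day 11 call was lost without replicate 2 of day 11 (-0.95, adjusted p = 0.0596), and the day 14 call without either day 14 library (-1.04, adjusted p = 0.103, and -0.91, adjusted p = 0.178). Hsp90ab1, the constitutive isoform, ranged from 2219 to 3322 over the 10 libraries and was not called in tubular cells, with -0.49 ± 0.21 (adjusted p = 0.098) on day 7. In proximal cells alone both isoforms were called lower on days 7, 11 and 14, Hsp90ab1 at -1.04 (adjusted p = 0.00256), -0.66 (adjusted p = 0.0455) and -0.84 (adjusted p = 0.0319), and Hsp90aa1 at -1.57, -1.19 and -1.57. In thick limb cells alone neither isoform was called on day 7 (all genes lower: 11.5%) or day 14 (0.855%). There, 1 of the 2 was called lower on day 11 (all genes: 6.45%).

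Hspa8, the constitutive HSP70 of the cytosol, was 1067 in the control, 562, 1051 and 859.6 on days 1, 2 and 4, 539 and 535 on day 7, then 986 and 1690 on day 11 and lastly 1064 and 826 on day 14. The day 7 libraries were the lowest, and those of day 11 differed from each other by more than 1.5 times. The change was -0.99 ± 0.29 (adjusted p = 0.0237) from control to day 7, lost without replicate 1 (adjusted p = 0.0549) or replicate 2 (adjusted p = 0.0618) of day 7. It rose again between day 7 and day 11, by 1.32 ± 0.25 (adjusted p = 0.00175). Hspa2, a testis-type HSP70 at 5.56 in the control, was 11.4 and 14.97 on day 7, a rise of 1.26 ± 0.43 (adjusted p = 0.0438) that was lost without replicate 2 of day 7 (1.04, adjusted p = 0.16).

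Among the 8 cytosolic DNAJA and DNAJB genes, 4 fell and 0 rose on day 7 (all genes: 18.1% lower). On day 11, 1 rose (all genes: 8.62%) and 1 fell (all genes: 8.83%). Dnaja1, the main HSP40 partner of HSPA8, was 1348 in the control, 509.7, 517 and 443 on days 1, 2 and 4, 432 and 306 on day 7, against 804 and 926 on day 11 and 895 with 598 on day 14. It fell by 1.87 ± 0.28 on the log2 scale (adjusted p = 0.00049) by day 7, and rose by 1.23 ± 0.24 (adjusted p = 0.00191) from day 7 to day 11. The rise from day 7 to day 14, 1.02 ± 0.24 (adjusted p = 0.00502), was lost without replicate 1 of day 14 (0.69, adjusted p = 0.083). Dnaja4 was 19.2 in the control and 4.57 and 3.10 on day 7, with a change of -2.38 ± 0.30 (adjusted p = 0.0002).

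Some chaperones of the endoplasmic reticulum fell in tubular cells. Of 9 members, 3 fell and 0 rose on day 7 (all genes: 18.1% lower), 3 fell and 0 rose on day 11 (all genes: 8.83% lower), and 1 fell on day 14 (all genes: 3.27%). By segment, 5 of 9 fell on day 7 in proximal cells (all genes: 18.3%), and 0 of 9 were called in thick limb cells (all genes lower: 11.5%). On day 11, 5 of 9 fell in proximal cells (all genes: 11.3%) and 2 of 9 in thick limb cells (all genes: 6.45%). Hspa5 (BiP), the HSP70 of this compartment and sensor of its stress, was 1510 in the control, 1223, 1336 and 844 on days 1, 2 and 4, 869.6 and 769 in the day 7 libraries, 551 and 701.5 in those of day 11, and 879 and 665 in those of day 14. No injured library reached the control, and the change was -0.88 ± 0.24 (adjusted p = 0.0164) on day 7 and -1.27 ± 0.24 (adjusted p = 0.00801) on day 11. The call on day 14, -0.97 ± 0.24 (adjusted p = 0.0384), was lost without replicate 1 (-1.19, adjusted p = 0.0724) or replicate 2 (-0.78, adjusted p = 0.254) of that day.

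Hsp90b1 (GRP94), the HSP90 of the endoplasmic reticulum and the gene with the pair of ERSE matches printed above, was 2156 in the control, 1276 and 1010 on day 7, and 1292 and 1203 on day 11. It fell by 0.92 ± 0.22 (adjusted p = 0.00918) and by 0.79 ± 0.22 (adjusted p = 0.0361) on the log2 scale. The second call was lost without replicate 1 (-0.84, adjusted p = 0.0672) or replicate 2 (-0.74, adjusted p = 0.127) of day 11, and also without replicate 1 (adjusted p = 0.0796) or replicate 2 (adjusted p = 0.0791) of day 14. Dnajb9, a target of the XBP1 branch of the unfolded protein response, ranged from 39.0 to 61.4 and was not called in tubular cells. Dnajc10, a reductase with a J domain, was 115 in the control and 54.5 and 49.5 on day 11, a change of -1.14 ± 0.20 (adjusted p = 0.00612).

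Genes of the wider response were counted for comparison. Of 19 genes of endoplasmic reticulum stress, 2 rose and 6 fell on day 7 (all genes: 16.7% and 18.1%), 3 fell on day 11 (8.83%) and 1 fell on day 14 (3.27%). Both that rose, Asns at 2.56 ± 0.39 (adjusted p = 0.000636) and Trib3 at 3.07 ± 0.91 (adjusted p = 0.0239), are targets of the ATF4 branch. Atf4 itself, Ddit3 and Chac1, of the same branch and list, were not among the genes that rose. Activity of the branch was not tested. Trib3 was not called by DESeq2 (3.18, adjusted p = 0.106). Herpud1, of the degradation machinery, fell by 1.78 ± 0.26 (adjusted p = 0.000464). Of 37 other genes of the chaperone network (co-chaperones, chaperonin subunits, HSF1 and others), 2 rose and 16 fell on day 7 (all genes: 16.7% and 18.1%), 3 rose and 4 fell on day 11 (8.62% and 8.83%), and 4 rose and 2 fell on day 14 (4.31% and 3.27%). Hsf1, the main heat-shock factor, was not called, with changes of 0.12 ± 0.27, 0.52 ± 0.27 and 0.51 ± 0.27. The medians of the network list were -0.42, 0.11 and 0.11. Genes were chosen for these lists by function, with earlier results of these data known.

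The widest fall on day 7 among the members was that of Dnajc12, a J-domain protein that helps fold the aromatic amino acid hydroxylases, among them phenylalanine hydroxylase. It was 283 CPM in the control, 17.6, 50.7 and 42.0 on days 1, 2 and 4, and 14.5 and 21.1 on day 7. It was 253 and 397 on day 11 and 201 and 225 on day 14. The 5 libraries of days 1 to 7 reached at most 50.7 and the other 5 were at least 201. The changes were -3.97 ± 0.29 (adjusted p = 9.26e-06) from control to day 7 and 4.17 ± 0.27 (adjusted p = 4.07e-06) from day 7 to day 11. Dnajc22 went from 62.1 to 15.4 and 21.2 on day 7, then 68.5 and 88.9 on day 11 and lastly 89.6 and 89.9 on day 14. The change was -1.74 ± 0.24 (adjusted p = 0.000298) to day 7, and 0.20 (adjusted p = 0.84) in thick limb cells alone.

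Dnajc6 (auxilin), which uncoats clathrin vesicles, was 6.69 in the control, 1.07 and 0.839 on day 7, and 14.4 and 9.41 on day 14, with -2.85 ± 0.40 (adjusted p = 0.000367) to day 7 and 3.69 ± 0.36 (adjusted p = 1.72e-05) from day 7 to day 14. Dnajc13, of the endosome, was 115 in the control, 32.4 and 28.2 on day 7, against 45.8 and 45.2 on day 11 and 93.0 with 93.3 on day 14. It was called lower on days 7 and 11, at -1.93 ± 0.19 (adjusted p = 3.85e-05) and -1.34 ± 0.19 (adjusted p = 0.00311). Hspb11, an intraflagellar transport subunit, was 18.1 in the control and 31.5 to 37.4 on days 7 and 11, with changes of 0.93 ± 0.23 and 0.98 ± 0.23. The latter was lost without replicate 1 (0.96, adjusted p = 0.0552) or replicate 2 (0.99, adjusted p = 0.0725) of day 11. Dnajc30, a mitochondrial J-domain protein that was not in the mitochondrial group, was 26.1 in the control, 15.5 and 22.4 on day 7 (-0.44 ± 0.24, adjusted p = 0.175; called without replicate 2 of day 7, -0.74, adjusted p = 0.0273) and 51.9 and 51.98 on day 11, a day 11 change of 0.99 ± 0.24 (adjusted p = 0.0217) that was lost without replicate 1 (adjusted p = 0.0568) or replicate 2 (adjusted p = 0.0808) of day 11. Dnajc5 (cysteine string protein), of secretory vesicles, was 95.4 and 118 on day 7 and 69.1 and 67.1 on day 11, -0.65 ± 0.18 (adjusted p = 0.0118) between them, a call lost without replicate 1 (adjusted p = 0.0505) or replicate 2 (adjusted p = 0.0722) of day 11. Dnajc21, of ribosome assembly, was 78.7 and 63.5 on day 11 and 126 and 121 on day 14, 0.80 ± 0.18 (adjusted p = 0.0184) between them. That call was lost without replicate 2 of day 11 (adjusted p = 0.146) and without replicate 1 (adjusted p = 0.128) or replicate 2 (adjusted p = 0.0993) of day 14. Of the 27 members outside the role groups, 1 rose and 7 fell on day 7 (all genes: 16.7% and 18.1%), and 2 rose and 3 fell on day 11 (all genes: 8.62% and 8.83%).

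Days 1, 2 and 4 had 1 library each and were compared with the 1 control library without a test, and intervals (95%, exact Poisson) cover counting error only. Hspb1 was 8.38, 8.48 and 21.5 times the control in tubular cells on these days. Its control level was 18.2 to 21.9 CPM by counting error, and that of day 1 was 159 to 177. Hspb8 was 2.83, 2.38 and 3.28 times the control. In the other direction, the control was 2.86, 3.72 and 3.44 times each day for Hspd1, 16.1, 5.58 and 6.74 times for Dnajc12, and 4.01, 4.18 and 4.40 times for Hsph1. The day 1 level of Dnajc12 was 14.8 to 20.7 and that of its control 276 to 290.1. A change of at least 2 times, with at least 20 counts in the higher library, was seen in 5 members up and 12 down of 62 on day 1 (27.4%; all genes: 13.6% up, 15.9% down, 29.4% in all), 6 up and 10 down of 63 on day 2 (25.4%; all genes: 13.9% up, 11% down, 24.9% in all), and 7 up and 14 down of 64 on day 4 (32.8%; all genes: 16.2% up, 13.3% down, 29.5% in all).

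The tests were repeated by segment. The day 7 rise of Hspb1 and Hspb8, the day 7 fall of most mitochondrial chaperones and the day 11 rise of Hspa1a and Dnajb1 were called in both proximal and thick limb cells. On day 7, 6 of 8 cytosolic DNAJA and DNAJB genes fell in proximal cells (all genes: 18.3%), and 0 of 7 were called in thick limb cells, where fewer of all genes fell (11.5%). In proximal cells alone, which reabsorb most of the filtrate, 6 of 64 members rose (all genes: 17.5%) and 32 fell (all genes: 18.3%) on day 7, 59.4% beside 35.8% called. On day 11, 8 rose (all genes: 9.18%) and 18 fell (all genes: 11.3%), 40.6% beside 20.4%, and on day 14 none rose (all genes: 3.83%) and 16 fell (all genes: 4.69%), 25% beside 8.51%. In thick limb cells alone, 2 of 62 rose (all genes: 10.2%) and 13 fell (all genes: 11.5%) on day 7, 24.2% beside 21.7%. On day 11, 5 rose (all genes: 4.98%) and 7 fell (all genes: 6.45%), 19.4% beside 11.4%, and on day 14 none rose (all genes: 0.889%) and 4 fell (all genes: 0.855%), 6.45% beside 1.74%. Differences between the segments' changes were not tested.

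Hspb1 was nearly absent from proximal cells of the control, at 4.44 CPM. It was 105.5, 74.6 and 394 on days 1, 2 and 4, 257 and 670 in the day 7 libraries, 102.5 and 70.8 in those of day 11, and 2.44 and 2.73 in those of day 14. Every library from day 1 to day 11 was more than 10 times the control. The change was 6.72 ± 0.63 (adjusted p = 2.43e-05) on day 7. In thick limb cells, where the control was 38.3, Hspb1 rose by 2.86 ± 0.25 (adjusted p = 2.79e-07) to 290.1 and 269 on day 7.

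Hspa1a in proximal cells was 30.2 in the control, 244 and 202 on day 11, and 4.87 to 23.8 in the 7 other libraries. It rose by 2.88 ± 0.33 (adjusted p = 0.000921) on day 11 and stood below control on day 14, at -2.46 ± 0.30. In thick limb cells it was 48.5 in the control and 321 and 314 on day 11, a rise of 2.71 ± 0.37 (adjusted p = 0.000334), and day 14 was at 0.78 ± 0.35 (adjusted p = 0.27). Hspa1b on day 11 was 1.02 ± 0.30 (adjusted p = 0.0363) in proximal and 0.78 ± 0.28 (adjusted p = 0.0814) in thick limb cells. Of Hspa1a and Hspa1b, 1 was called lower on day 7 in proximal cells (all genes: 18.3%), with a median log2 change of -1.22. Neither was called on day 7 in thick limb cells (all genes lower: 11.5%), where the median was 0.455. Dnajb1 on day 7 fell by 0.87 ± 0.25 on the log2 scale (adjusted p = 0.0181) in proximal cells and was at 0.73 ± 0.30 (adjusted p = 0.0992) in thick limb cells.

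Hspd1 fell in both segments on day 7. In proximal cells it was 2174 CPM in the control and 357 and 306 on day 7, and in thick limb cells 544 and then 265 and 182. The changes were -2.71 ± 0.21 (adjusted p = 8.17e-06) and -1.30 ± 0.22 (adjusted p = 0.000303). Hspe1 changed by -1.81 ± 0.21 (adjusted p = 8.91e-05) and -0.83 ± 0.22 (adjusted p = 0.0105). From day 7 to day 11, 7 of 7 mitochondrial chaperones rose in proximal cells (all genes: 18.3%) and 6 of 7 in thick limb cells (all genes: 15.8%). Dnajc12 fell by 4.35 ± 0.26 on the log2 scale (adjusted p = 2.94e-06) in proximal cells on day 7 and was at -0.64 ± 0.33 (adjusted p = 0.19) in thick limb cells. Dnaja1, at -1.87 in all tubular cells, was -2.35 ± 0.26 in proximal cells and -0.27 in thick limb cells.

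**Figure D3:**
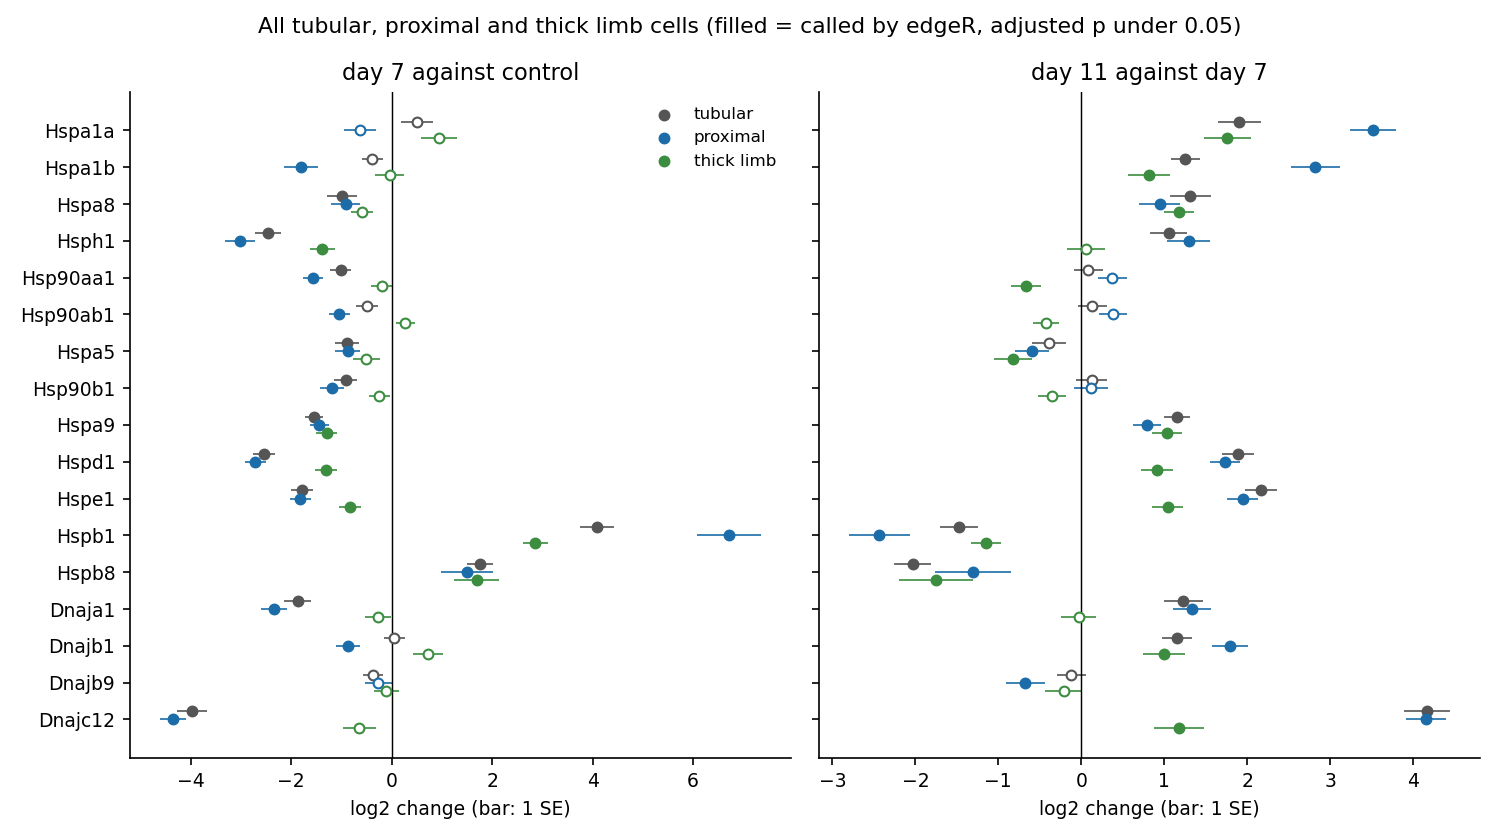
Log2 changes from control to day 7 (left) and from day 7 to day 11 (right) of 17 members, in all tubular, proximal and thick limb cells (bars: 1 SE; filled: edgeR adjusted p under 0.05). Hspb1 rose on day 7 by 6.72 in proximal and 2.86 in thick limb cells, and Dnajc12 was at -4.35 and -0.64.

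The day 11 level of Hspa1a was not limited to the tubule. This comparison was chosen after the values were seen. The day 11 tables were also the only ones that held barcodes down to 300 genes. Day 11 and any difference in how its libraries were handled cannot be told apart, and the part of handling in these levels was not tested. It was made in 10 sums of cells: all tubular cells, the 5 tubular segments, tubular cells of no named segment, podocytes, endothelial cells, and macrophages or monocytes. In each, both day 11 libraries had more Hspa1a than every other library. Dnajb1 was highest on day 11 in 9 of the 10, the distal convoluted class being the exception, and Hspa1b in 7 of them, without principal, distal convoluted and intercalated cells. Endothelial Hspa1a was 2252 and 1892 CPM on day 11, 340.1 in the control and 34.5 to 203 in the others. Podocytes held 676 and 735 on day 11 against 0 to 56 in 5 other libraries. Over all members, 8 of 66 stood above every other library in tubular cells on day 11 (12.1%; all genes: 9.39%), 6 of 52 in endothelial cells (11.5%; all genes: 8.26%) and 7 of 49 in macrophages or monocytes (14.3%; all genes: 5.98%). It was 10 of 63 in thick limb cells (15.9%; all genes: 10.6%), 5 of 36 in podocytes (13.9%; all genes: 13.8%) and 5 of 61 in tubular cells of no named segment (8.2%; all genes: 7.73%). The share was below that of all genes in proximal cells, at 6 of 63 (9.52%; all genes: 10.2%), principal cells, at 4 of 58 (6.9%; all genes: 8.58%), distal convoluted cells, at 5 of 52 (9.62%; all genes: 10.3%), and intercalated cells, at 2 of 44 (4.55%; all genes: 8.16%).

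In endothelial cells, which line the vessels, 49 members were tested. On day 7 none rose (all genes: 1.52%) and 7 fell (all genes: 2.16%; called either way: 3.69%). The largest falls were those of Hspa1b at -3.93 ± 0.53 (adjusted p = 2.03e-06) and Hsph1 at -2.39 ± 0.42 (adjusted p = 0.000192). On day 11, 4 rose (all genes: 1.94%) and 5 fell (all genes: 3.62%; either way: 5.56%). Hspa1a rose by 2.61 ± 0.32 (adjusted p = 1.61e-06), Dnajb1 by 1.72 ± 0.33 (adjusted p = 0.000892), Hspa1b by 1.12 ± 0.32 (adjusted p = 0.0312) and Hspb1 by 1.07 ± 0.29 (adjusted p = 0.0237). Hspa5 and Hsp90b1 of the endoplasmic reticulum fell by 1.48 ± 0.28 and 1.04 ± 0.27 on the log2 scale. On day 14, 6 fell (all genes: 1.25%) and none rose (all genes: 0.790%; either way: 2.04%), with Hsph1 at -3.03 ± 0.46 (adjusted p = 6.47e-05). These counts of 7, 9 and 6 were 3, 3 and 2 by DESeq2 in place of edgeR. The day 11 count was 5 without either day 11 library, and that of day 14 was 2 without replicate 1 and 3 without replicate 2 of day 14.

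Endothelial Hspb1 did not follow the tubular course. It was 1761 CPM in the control, 552, 1036 and 847 on days 1, 2 and 4, 632 and 1020 on day 7, then 3551 and 3874 on day 11 and lastly 873 and 909 on day 14. The control was above every injured library but those of day 11, where in tubular cells the control was below all libraries up to day 11. On day 7 endothelial Hspb1 fell by 1.06 ± 0.28 on the log2 scale (adjusted p = 0.0192). The difference between the classes' changes from control to day 7 was -5.27 ± 0.24 (adjusted p = 3.38e-17). Immediate early genes summed to 20080 CPM in endothelial cells of the control, 30400 and 30110 on day 11, and 11440 to 19020 in the other libraries. Their part in these changes was not tested. Proximal marker RNA in endothelial sums ran from 65.8 to 967.7 CPM.

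Macrophages or monocytes were few in the control (45 cells, 61670 UMIs), which limits each comparison with it. Of 35 members tested, Hspa1a fell on day 7, from 248 CPM in the control (13 counts) to 21.4 and 24.1, a change of -3.43 ± 0.61 (adjusted p = 0.00122). None was called by edgeR on days 11 and 14, with 8 and 5 of the 35 members at an unadjusted p under 0.05, beside 846 and 517 of all 3899 genes, and DESeq2 called 2 on day 7 and 1 on day 14. Without either day 14 library the counts on days 7 and 11 were 2 and 1. Of all genes, 1.46% rose and 1.90% fell on day 7 (3.36% called), 1.59% and 1.33% on day 11 (2.92%), and 0.359% and 0.180% on day 14 (0.539%). Among the 8 libraries outside day 11, the control had the highest Hspa1a, and the median of these libraries was 29.1 CPM. On day 11 Hspa1a was 909 and 492. Hspb1 had 0 counts in the control and in both day 14 libraries, which allows up to 57.3, 78 and 47.8 CPM (3 counts in each library). Summed immediate early RNA was 29540 in the control, 21800 and 20930 on day 11 and 7318 to 18170 elsewhere. It was higher in the control than on day 7, as Hspa1a was, and its part in the Hspa1a change was not tested.

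**Figure D4:**
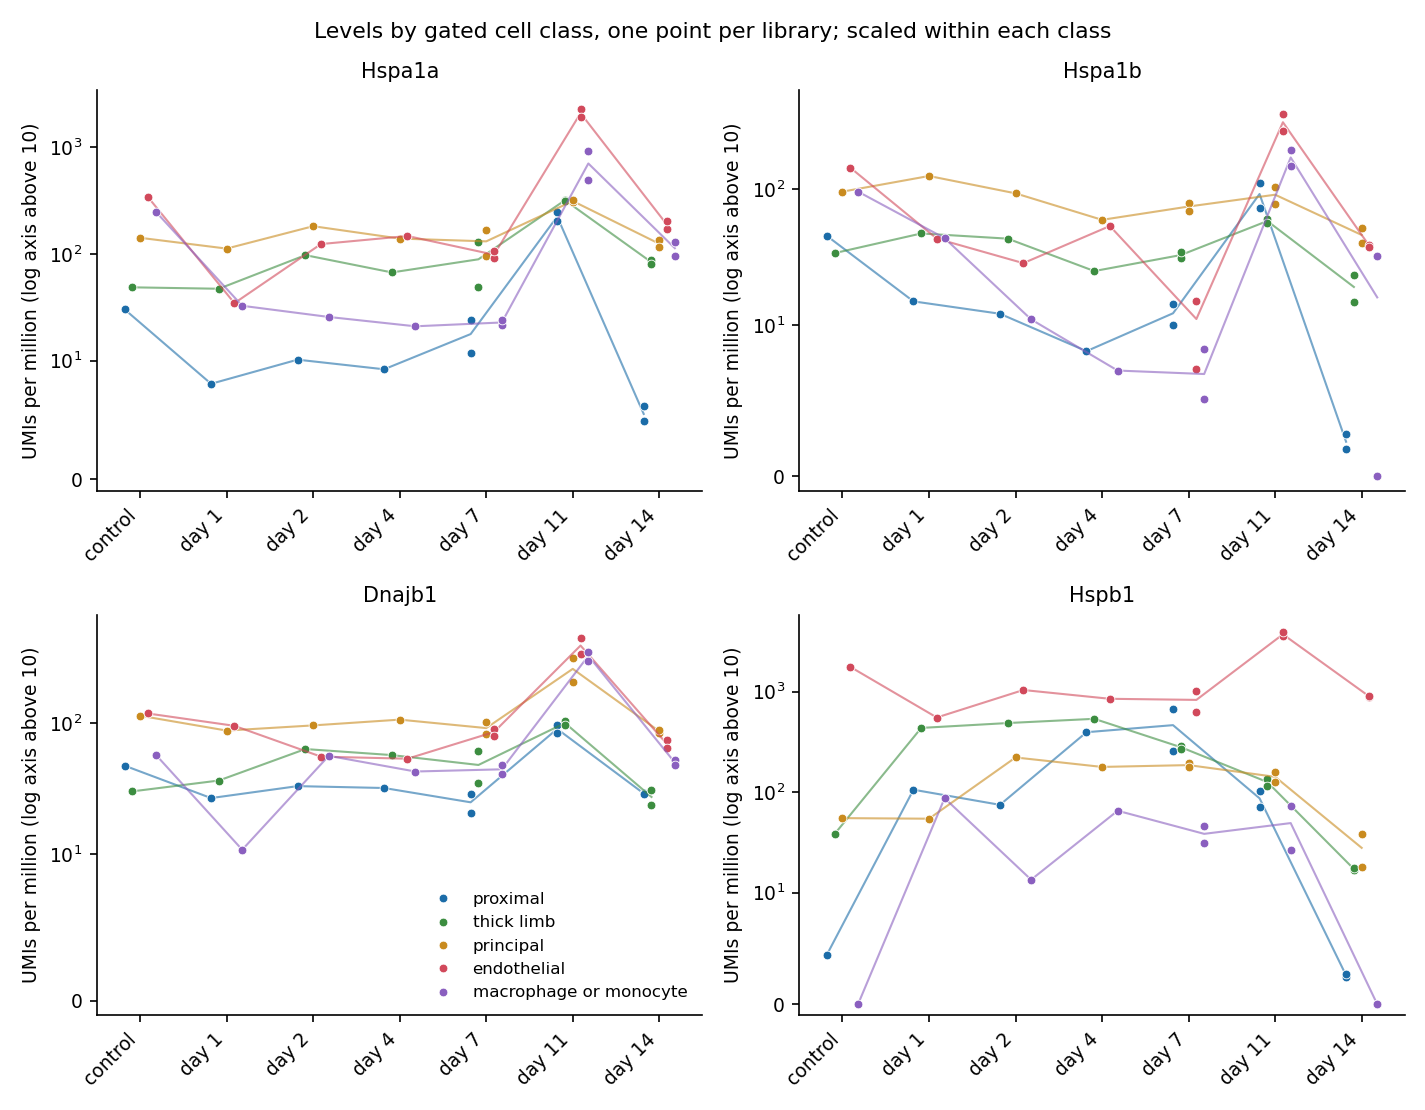
Levels of Hspa1a, Hspa1b, Dnajb1 and Hspb1 by library in proximal, thick limb, principal, endothelial and macrophage or monocyte cells (y axis: CPM, scaled within each class, logarithmic above 10 and linear below). Points are libraries and lines join group means. Hspa1a was highest on day 11 in each class, and endothelial Hspb1 peaked at 3551 and 3874 on day 11.

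Many members differed between cell classes of the same libraries, as many of all genes did. The members' shares called in either direction were near those of all genes. By direction, fewer members were higher and more were lower than among all genes in each of the 5 classes. Compared with proximal cells of the same library, 10 of 52 members were higher (all genes: 34.3%) and 24 lower (all genes: 36.4%) in endothelial cells, where 70.7% of all genes were called. In macrophages or monocytes 6 of 56 were higher (all genes: 20%) and 29 lower (all genes: 39.1%; either way: 59.0%). In thick limb cells they were 14 (all genes: 29.6%) and 25 of 58 (all genes: 31.8%; either way: 61.4%). In distal convoluted cells, over 8 libraries, they were 9 (all genes: 21.7%) and 22 of 57 (all genes: 27.9%; either way: 49.6%), and in principal cells 13 (all genes: 30.5%) and 23 of 58 (all genes: 32.1%; either way: 62.5%). Hspd1, Hspe1, Hspa9, Dnajc12, Dnajc22, Hsph1 and Hsp90aa1 were lower than in proximal cells in all 5 classes. The share of all genes lower in all 5 was not counted. Dnajc22 differed by -5.29 ± 0.32 in endothelial and -3.48 ± 0.15 in principal cells. Hspd1 differed by -2.50 ± 0.19 (adjusted p = 2.3e-08) in endothelial and -1.38 ± 0.13 (adjusted p = 6.56e-07) in thick limb cells.

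Hspa1a was higher than in proximal cells by 3.12 ± 0.29 (adjusted p = 1.72e-07) in endothelial, 2.69 ± 0.44 in principal, 2.01 ± 0.39 in thick limb and 1.24 ± 0.32 in macrophage or monocyte cells. In distal convoluted cells the difference was 0.39 ± 0.42 (adjusted p = 0.477). These values pool all libraries, and the gaps were not even across days. In the control, Hspa1a was 141.1 CPM in principal, 48.5 in thick limb and 30.2 in proximal cells. On day 11 it was 305.1 and 318.2, 313.7 and 320.6, and 201.8 and 244.2 in these classes. Hspa1b was called higher in endothelial (1.41 ± 0.34) and principal cells (2.02 ± 0.43), and was at -0.20 ± 0.31, 0.86 ± 0.39 and -0.57 ± 0.42 in macrophage or monocyte, thick limb and distal convoluted cells. Dnajb1 was higher in endothelial (1.10 ± 0.16) and principal cells (1.31 ± 0.09), lower in distal convoluted cells (-0.60 ± 0.19), and not called in the other 2 classes. Hspb1 was 3.997 ± 1.002 (adjusted p = 0.00244) higher in endothelial cells over all 10 libraries. That gap was not even across days: endothelial and proximal levels of Hspb1 were 1761 and 4.44 CPM in the control, but 632 and 257 in replicate 1 and 1020 and 670 in replicate 2 of day 7. In macrophages or monocytes Hspb1 differed by -2.74 ± 0.39. Hspb8 was higher in thick limb, distal convoluted and principal cells, by 2.08 ± 0.35, 3.08 ± 0.43 and 2.80 ± 0.33. Hspa12b, a distant HSP70 relative known from vessels, was 7.22 ± 0.35 higher in endothelial cells, at 40.02 to 74.9 CPM in the 10 libraries. Dnajc9, a histone chaperone partner tied to DNA replication, was higher in macrophages or monocytes by 1.20 ± 0.20 and in principal cells by 1.29 ± 0.14.

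**Figure D5:**
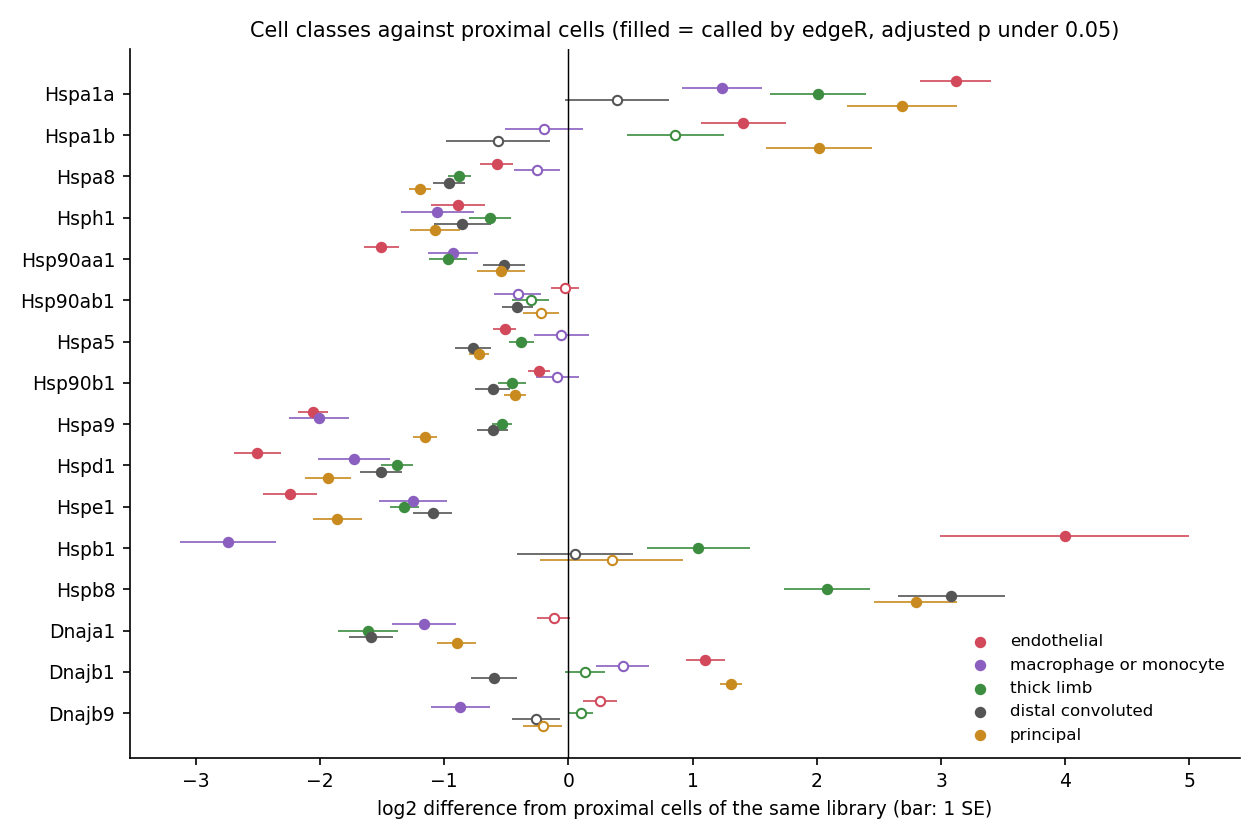
Log2 difference of each class from proximal cells of the same library (x axis; bars: 1 SE; filled: edgeR adjusted p under 0.05) for the 16 members named throughout. Hspd1, Hspe1 and Hspa9 lie below 0 in all 5 classes, and Hspa1a lies above 0 by 3.12 in endothelial cells.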

How the data were processed

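Single-cell RNA was measured by Drop-seq in 10 libraries of mouse kidney cortex. The authors deposited 1 table of gene counts per cell barcode for each library, read here as UMI counts. The submitters' processing notes name Bowtie2 2.2.7 and mm10; how UMIs were collapsed, whether strand was used and how barcodes were chosen is not given in the sources used here. Barcodes with at least 500 genes, at least 500 UMIs and at most 50% mitochondrial UMIs were kept, 162767052 of 173806985 UMIs. A cell was gated into a class with at least 3 UMIs from at least 2 of that class's markers, and at least 2 times the UMIs of every other class's markers (102 markers listed, 101 in the tables). Markers name the classes proximal, thick limb, distal convoluted, principal and intercalated (together with unassigned epithelium: tubular), podocyte, endothelial, stromal and mural, macrophage or monocyte, neutrophil, T or NK cell, B cell and erythroid. No doublet caller was run; the gate's ratio and an alternative without the 5% of barcodes with the most UMIs stand in for it.

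Counts were summed per library and class, using classes with at least 20 cells. Sums of all 10 libraries were fitted with edgeR 4.0.16 in R 4.3.3 (TMM scaling, 1 term per group, quasi-likelihood test, residual df 3, Benjamini-Hochberg over all genes, adjusted p under 0.05); SE is the log2 change divided by the square root of F. Classes were compared with proximal cells with the library as a term, and differences between classes in a single model over genes that passed the low-count filter in each class. Only the tubular fit was tried on simulated counts, for day 7 against control. Those counts used the fit's own dispersions for every library, so they cannot test how the lone control varies. The other fits were not simulated. Single libraries carry exact Poisson 95% intervals, which cover counting error only. Python 3.11.15 with pandas 2.3.3 handled the tables, and DESeq2 1.42.0 was an alternative. Other alternatives were other size factors, no low-count filter, fewer groups, other gates, other sums of cells and leaving out each library.

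The text names 16 core genes throughout (those in the plot of classes against proximal cells) and, for each comparison, up to 5 further members that rose most and 5 that fell most among those called, 126 changes in all. Other members and list genes were named for their role, or after their values were seen; those whose changes in tubular cells are given bring the changes recomputed under the alternatives to 150. The members, role groups and lists were chosen with earlier results of these data known. Upstream sequences are RefSeq on GRCm38.p6; GENCODE M21 matched 67 of 67 members, of which 29 overlap a gene on the opposite strand and 19 one on the same strand.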

Additional observations from a re-analysis of the deposited data

Results flagged for a closer look

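Each value here is a difference between 2 cell classes in the log2 change of a member between the same days, tested as an interaction and called by edgeR at an adjusted p under 0.05. Of 35 members tested, macrophages or monocytes differed from tubular cells in 6 from control to day 7 (all genes called: 14.1%) and in 11 from day 7 to day 14 (all genes: 23.9%). Of 49 tested, endothelial cells differed in 9 (all genes: 15.7%) and 8 (all genes: 17.4%). The endothelial 9 became 5 without replicate 2 of day 7 and 15 against proximal cells.

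From control to day 7, Hspa1a moved lower in macrophages or monocytes than in tubular cells by -3.95 ± 0.69 (SE) and Hspa1b by -3.51 ± 1.04. For the mitochondrial Hspa9, Hspd1 and Hspe1, which fell in tubular cells, the differences were 2.07 ± 0.61, 2.25 ± 0.39 and 2.64 ± 0.37. A positive difference can be a smaller fall rather than a rise. From day 7 to day 14 the differences were 3.58 ± 0.71 for Hspa1a, -1.40 ± 0.41 for Hspa9, -2.04 ± 0.34 for Hspd1, -1.79 ± 0.27 for Hspe1, -1.03 ± 0.26 for Hspa8 and -0.81 ± 0.22 for Hsp90b1. The macrophage sums of the control and of day 14 held few UMIs, and the 11 calls became 3 without replicate 1 and 6 without replicate 2 of day 14. The 6 calls from control to day 7 became 3 without replicate 2 of day 14 and 4 without its replicate 1 or without replicate 1 of day 7.

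From control to day 7, Hspb1 moved lower in endothelial than in tubular cells by -5.27 ± 0.24, Hspa1b by -3.68 ± 0.58 and Hspa1a by -2.51 ± 0.28. For Hspd1, Hspe1 and Hspa9, which fell in tubular cells, the differences were 1.66 ± 0.29, 1.46 ± 0.32 and 1.06 ± 0.33. None of these genes was called higher in endothelial cells on day 7. From day 7 to day 14 the differences were 5.51 ± 0.23 for Hspb1, 4.23 ± 0.69 for Hspa1b, 2.43 ± 0.30 for Hspa1a, -1.88 ± 0.31 for Hspd1, -1.18 ± 0.31 for Hspe1 and -0.81 ± 0.22 for Dnaja1. Set against proximal cells in place of all tubular cells, 5 of these 23 differences were no longer called: Hspa1b in macrophages or monocytes on day 7 (-2.12, adjusted p = 0.198), and from day 7 to day 14 Hspa8 (-0.66, adjusted p = 0.119), Hspa9 (-0.98, adjusted p = 0.117) and Hsp90b1 (-0.70, adjusted p = 0.0713) in macrophages or monocytes and Hspe1 (-0.94, adjusted p = 0.0532) in endothelial cells. The other 18 kept their call and direction, among them endothelial Hspb1 (-7.76), Hspd1 (1.83) and Hspa1a (-1.20) and macrophage Hspa1a (-2.77) on day 7. The proximal share of tubular cells was lowest on day 7, and its part in these differences was not tested beyond that comparison.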

How the results depend on the processing

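For 150 changes of named genes in tubular cells, 2674 values were computed under 19 other settings, and 2485 kept their side of the threshold (and, where called, their direction), 116 lost a call, 64 gained one and 9 reversed. Among the 2485, 73 values that were not called either way changed sign. No call changed under the stricter gate, with at most 25% mitochondrial UMIs or with mitochondrial genes left out. The reversed values were Dnajb1 on day 7 in proximal cells (-0.87), Hspb8 from day 11 to day 14 in proximal cells (-1.89) and over all filtered barcodes (-0.76), Hspb1 from day 7 to day 11 over all filtered barcodes (0.0128), and in thick limb cells Hspa2 (-0.0639) and Dnajc22 (0.2046) on day 7, Hsp90aa1 from day 7 to day 11 (-0.67), and Dnaja1 from day 7 to day 11 (-0.032) and to day 14 (-0.81); the cause was not tested. The 7 tubular calls on day 14 became 15 with no filter, 23 with only the groups compared, 16 in proximal cells, 12 without the barcodes with most UMIs, 4 in thick limb cells, and 1 to 16 with 1 library left out. Thick limb cells alone, which were far fewer, gave 15 calls of 62 members on day 7 (24.2% beside 21.7% of all genes). They gave 18 between days 7 and 11 (29% beside 28.7%) and 12 between days 7 and 14 (19.4% beside 23.3%). Between days 11 and 14 they gave 6 (9.68% beside 7%). With 1 library left out, the other tubular counts ran over 30 to 34 (day 7), 10 to 24 (day 11), 22 to 29 (day 7 to 11), 22 to 34 (day 7 to 14) and 5 to 14 (day 11 to 14). Macrophage calls became 2 on day 7 and 1 on day 14 by DESeq2 and 2 on day 11 with only the groups compared, and ran over 1 to 2 on day 7 and 0 to 1 on day 11 with 1 library left out. Endothelial calls became 3, 3 and 2 by DESeq2 and 13 on day 14 with only the groups compared, and ran over 5 to 7, 5 to 11 and 2 to 8. The distal convoluted comparison gave 19 calls without the library term. Differences between classes on day 7 gave 15 endothelial calls against proximal cells. With 1 library left out they ran over 5 to 11 and 6 to 10 (endothelial) and 3 to 6 and 3 to 11 (macrophage) on days 7 and 14. Thick limb cells alone, the mitochondrial genes left out and the alternatives to the class differences were chosen after seeing the data.

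Replicate numbers did not pair the libraries (correlations of deviations 0.051, -0.019 and -0.048). In the 6 libraries of days 7, 11 and 14, the replicate block gave 29, 35 and 12 calls from day 7 to 11, 7 to 14 and 11 to 14, against 27, 34 and 10 without it. Depth limits the comparisons within macrophages or monocytes, whose sums ran from 42300 to 3229000 UMIs.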
